A study of Drosophila melanogaster with 25 samples.

Results

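The gene described here is shep (alan shepard, FBgn0052423, CG32423), 1 of the 16037 gene identifiers counted in Drosophila melanogaster nuclear RNA, followed with antisera against the protein it encodes. It was chosen by that identity and with its counts in all 22 libraries already known. Those counts are therefore values that entered the choice, and the levels and folds made from them are given as a description, with no p-value. Shep is an RNA-binding protein with RNA recognition motifs. It is known as a regulator of gypsy insulator activity in the nervous system and as a factor in the remodelling of neurons at metamorphosis. RNA-binding proteins often bind transcripts of their own gene, and immunoprecipitation of the protein followed by sequencing of the RNA that comes with it (RIP-seq) measures how much of each transcript is recovered.

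Nuclear extracts of 2 cell lines were used. Kc (labelled Kc167) is a line of embryonic origin that resembles blood cells, and BG3 was derived from the central nervous system of larvae. The Kc libraries were 6 input libraries of unprecipitated nuclear RNA, 3 precipitates with Shep antiserum Rb5, 2 with Rb6, 2 with Gp01 and 3 with antiserum Gp60 against Su(Hw), a zinc-finger protein of the gypsy insulator. In BG3 cells there were 2 libraries each of input, Shep Rb5 and Su(Hw) Gp60. No genotype, treatment or time is given in the labels, every extract was precleared with preimmune serum, poly(A)+ RNA was selected, and no mock precipitate was used here. The numbered samples are called biological replicates in the labels, and 3 samples whose files were identical to another's were counted once. All Kc comparisons with input share the same 6 inputs, and both BG3 comparisons share the same 2. Fewer cells expressing a gene and less of its RNA per cell cannot be told apart in such bulk extracts, and the cell lines could not be checked against marker genes because none of the listed markers could be paired with an identifier.

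Levels are counts per 1000000 reads (CPM), scaled between libraries by TMM, a method that sets the bulk of genes level, and each fold is a log2 value with its SE from edgeR. Reads given to genes ran from 6190633 to 59066733 per library, and shep had between 452 and 20534 of them. The lowest level was that of BG3 input 1, where 919 reads gave 25.3 CPM with an exact 95% Poisson interval from 23.6 to 26.9. The interval of BG3 input 2, from 47.4 to 52.5 CPM, did not overlap with it. The intervals of the Gp01 libraries of Kc cells, from 106 to 112 and from 108 to 115 CPM, did overlap. Each table holds 1 count for the whole gene, so the levels say nothing of separate shep isoforms.

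In BG3 cells the Rb5 precipitates held 9.78 times as much shep RNA as the inputs on average. shep stood at 378 and 357 CPM in the Rb5 libraries and at 25.3 and 49.9 CPM in the inputs. Both precipitates lay above both inputs, and the lowest Rb5 level was 7.17 times the highest input level. How many of all tested genes separate in this way was not counted, here or for the pairs of groups below. With 2 libraries per group, nothing is read from a separation alone. The mean over the Rb5 libraries was 368 ± 14.2 CPM (SD, n = 2), and that over the inputs was 37.6 ± 17.4 CPM (SD, n = 2). The log2 fold was 3.29 ± 0.55. Across the whole table edgeR called 11% of the 9961 tested genes in this comparison at an adjusted p under 0.05, and nothing is read from that share for shep. The fold of shep was exceeded by 112 tested genes, and by 6 of the 5501 genes with a mean of at least 10 CPM over all libraries. The median log2 fold was 0.17 over all tested genes.

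The libraries with the same number gave different sizes of this ratio. Rb5 1 over input 1 was 14.95 and Rb5 2 over input 2 was 7.17 in TMM-scaled CPM, where the inputs differed more than the precipitates. Set against all counts in the file, a scale given below, the ratios were 21.3 and 11.9, and there the precipitates differed more than the inputs. Leaving out BG3 input 2, the higher one in CPM, moved the log2 fold to 3.86, and leaving out input 1 moved it to 2.88. Without any scaling beyond the library total the fold was 3.79, since the TMM factors were 1.09 and 1.27 for the Rb5 libraries and 0.82 and 0.84 for the inputs. A single identifier without a symbol, FBgn0085813, held 14.3% and 29.2% of the reads given to genes in the BG3 inputs and 3.74% and 3.53% in the Rb5 precipitates, and the fit without it gave shep a log2 fold of 3.23.

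The Su(Hw) precipitates of BG3 cells also held more shep RNA than the inputs. Without a mock precipitate, recovery by the antiserum cannot be told apart from a general difference between precipitates and inputs. The Gp60 libraries held 187 and 168 CPM, above both inputs and below both Rb5 precipitates. The mean was 177 ± 13.7 CPM (n = 2), a log2 fold against input of 2.24 ± 0.53. That fold was exceeded by 881 of the 9961 tested genes, compared with 112 for Rb5. Set directly against each other, Rb5 stood above Su(Hw) by 1.05 ± 0.51 on the log2 scale. The 2 groups did not overlap, and the share of all tested genes for which that holds was not counted. The size of this last difference depended on scaling, because the TMM factors of the BG3 Su(Hw) libraries were 0.41 and 0.73. Counted per 1000000 reads given to genes, shep stood at 412 and 452 with Rb5, 76.6 and 123 with Su(Hw) and 20.8 and 41.7 in the inputs, and the log2 difference between Rb5 and Su(Hw) was 2.12 with library totals in place of TMM. The order of the 3 groups was the same on both scales.

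**Figure D1:**
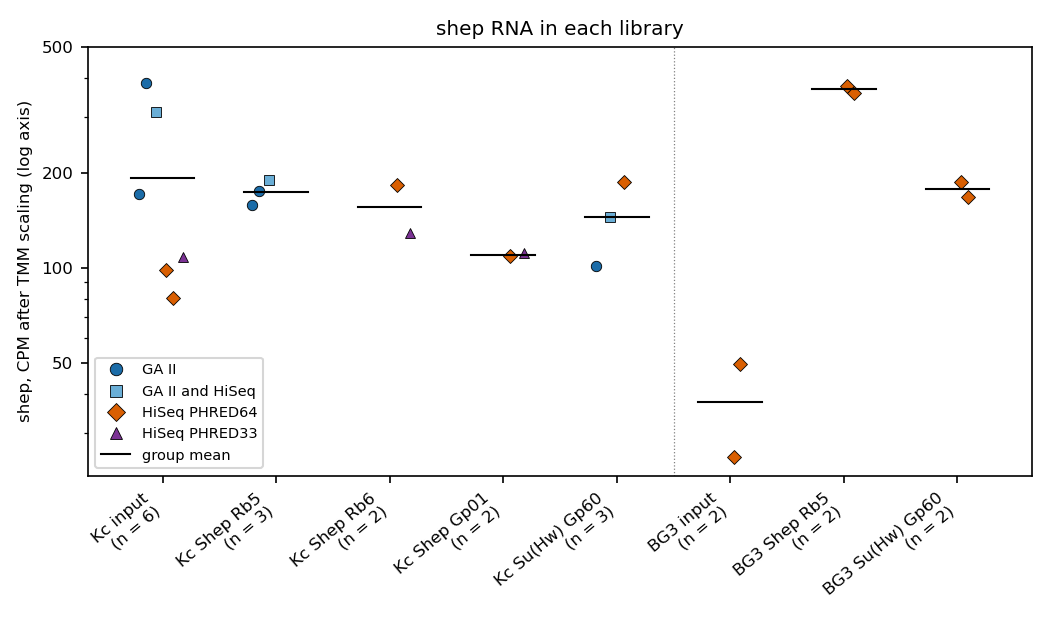
shep RNA in each of the 22 libraries, in CPM after TMM scaling on a log axis. Points are libraries, their shape and colour give the sequencing class, and black lines are group means. The BG3 inputs are the lowest libraries at 25.3 and 49.9 CPM, the BG3 Rb5 precipitates lie at 357 and 378 CPM, and the Kc inputs spread from 80.5 to 386 CPM.

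In Kc cells none of the 3 Shep antisera gave a shep level outside the range of the inputs. The inputs ran from 80.5 CPM through a median of 140 to 386 CPM (193 ± 127, n = 6). The Rb5 precipitates held 158, 175 and 190 CPM (174 ± 15.97, n = 3), the Rb6 precipitates 183 and 129 CPM (156 ± 38.3, n = 2) and the Gp01 precipitates 109 and 111 CPM (110 ± 1.70, n = 2). All 7 of these libraries lay between the lowest and the highest input, a range that holds inputs from different sequencing machines.

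Part of the spread of the Kc inputs went with the sequencing machine, and part of it lay within the GA II class. The labels name the machine and the quality encoding of each library, which gave 4 classes: GA II, samples listed for both GA II and HiSeq, HiSeq with PHRED64 qualities and HiSeq with PHRED33 qualities. shep stood at 172 and 386 CPM in the GA II inputs and at 313 CPM in the input listed for both machines. In the HiSeq inputs it stood at 98.6 and 80.5 CPM (PHRED64) and at 109 CPM (PHRED33). The first 3 inputs lay above the other 3 without overlap, at means of 290 ± 109 and 95.9 ± 14.2 CPM, a difference of 1.53 in log2 CPM. Only 32 of the 9961 tested genes had a larger difference in that direction, while 8.86% of tested genes had the first 3 inputs wholly above the other 3. The labels do not say whether these inputs also differ in extraction or culture, so the machine and the preparation cannot be told apart.

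Because of this, the Kc folds were taken from a fit with the class as a covariate, and they are given beside the differences within each class. For Rb5 the log2 fold against input was -0.43 ± 0.38. Within the GA II class Rb5 differed from input by -0.63 in log2 CPM and within the class of both machines by -0.72. These are the classes with the high inputs. edgeR called 29.8% of all tested genes in this comparison. Each Rb5 library also lay below the input of the same number, at differences of -0.12, -1.14 and -0.72 in log2 CPM, and a fit with the replicate number as a block gave -0.71 ± 0.28. With library totals in place of TMM the log2 fold of shep was 0.17, and with all counts in the file as library size it was 0.42. Without Kc input 2, the library with the most shep, it was 0.03. These fits do not pair the libraries by number, and in them the direction depended on the scaling and on that library.

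For Rb6 the log2 fold was 0.32 ± 0.46, with differences of 1.04 and 0.24 in the HiSeq classes with PHRED64 and PHRED33 qualities. It was 0.69 ± 0.29 with HiSeq libraries alone, 0.70 ± 0.34 with only the compared groups and 1.13 with all counts in the file as library size. It turned in the 2 fits that lack the class covariate. These gave -0.31 with no covariate and -0.72 with the replicate block, which took the place of the class. For Gp01 the log2 fold was -0.15 ± 0.47, with differences of 0.29 and 0.04 within the same classes. It was 0.19 when HiSeq libraries alone were fitted and 0.42 with library totals, but -0.81 without the class covariate and -1.24 with the replicate block. For both antisera that block set HiSeq precipitates 1 and 2 beside GA II inputs 1 and 2. It therefore cannot tell the precipitate from the machine. All Rb6 and Gp01 libraries were HiSeq, and each lay above the 3 HiSeq inputs in CPM. For Gp01 the margin was small, at 109.06 CPM in Gp01 1 against 108.6 CPM in input 6. The share of all tested genes that separate in this way was not counted. edgeR called 29.9% of tested genes for Rb6 and 20.2% for Gp01. In all 3 comparisons the fold of shep lay inside the bulk of the genes, with 28.6% of tested genes below it for Rb5, 55.2% for Rb6 and 38.1% for Gp01.

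**Figure D2:**
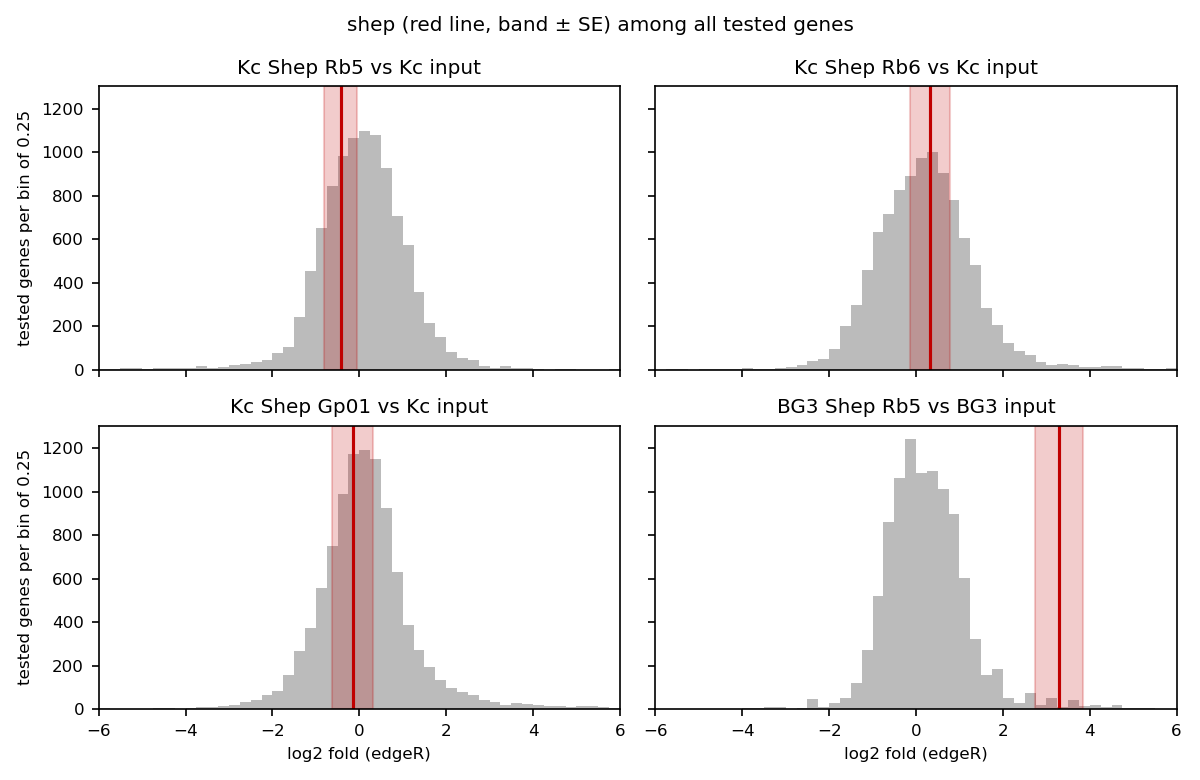
Distribution of log2 folds against input over the 9961 tested genes for the 4 Shep comparisons (x axis, log2 fold from edgeR between -6 and 6; y axis, genes per bin of 0.25). The red line is shep with a band of ± SE. It lies at 3.29 in the right tail for BG3 Rb5 and at -0.43, 0.32 and -0.15 inside the bulk for Kc Rb5, Rb6 and Gp01.

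The 3 Shep antisera were also set against each other in Kc cells. The log2 difference in shep RNA was -0.75 ± 0.57 for Rb5 against Rb6, -0.27 ± 0.58 for Rb5 against Gp01 and 0.47 ± 0.50 for Rb6 against Gp01. In CPM the Rb5 libraries overlapped those of Rb6, and each Rb5 and Rb6 library lay above both Gp01 libraries. Rb5 shares no class with Rb6 or Gp01, and without the class covariate Rb5 stood above both, by 0.16 and 0.66. Rb6 and Gp01 share both of theirs, and Rb6 was the higher in each, by 0.75 and 0.21 in log2 CPM.

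Su(Hw) precipitates from Kc cells held 101, 145 and 188 CPM of shep (145 ± 43.1, n = 3), within the range of the inputs. The log2 fold was -0.31 ± 0.38. The within-class differences went both ways, at -1.34 in GA II, -1.11 in the class of both machines and 1.07 in HiSeq with PHRED64 qualities. Against Su(Hw), Kc Rb5 stood at -0.11 ± 0.46 on the log2 scale, with overlapping libraries. Within the GA II class and the class of both machines Rb5 was the higher by 0.71 and 0.39. Leaving out Su(Hw) 3 moved the joint value to 0.56.

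The lines differed in the starting level of shep as well. BG3 inputs held 37.6 ± 17.4 CPM and Kc inputs 193 ± 127 CPM, and the highest BG3 input, at 49.9 CPM, lay below the lowest Kc input, at 80.5 CPM. The log2 fold of BG3 against Kc input was -1.86 ± 0.51, and within HiSeq with PHRED64 qualities, the class that holds inputs of both lines, it was -1.33. edgeR called 42.6% of tested genes between the inputs. The fold of Rb5 over input was larger in BG3 than in Kc cells by 3.72 ± 0.66 on the log2 scale, a value exceeded by 119 of the 9961 tested genes. The Rb5 means were 368 CPM in BG3 and 174 CPM in Kc cells, so this value also carries the lower BG3 input. No sequencing class holds Rb5 libraries of both lines.

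Ordered by mean CPM, the groups ran from BG3 Rb5 through Kc input, BG3 Su(Hw), Kc Rb5, Kc Rb6, Kc Su(Hw) and Kc Gp01 to BG3 input. Each neighbouring pair in that order overlapped in its libraries except Kc Gp01 and BG3 input. BG3 Rb5 overlapped only with the Kc inputs, through input 2.

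A further scale sets shep against all counts in the file, with the lines for reads given to no gene included. The line for unaligned reads held 0.0% in each library, so such reads are not part of it. The line for reads placed in several positions made up from 35.0% to 86.6% of the counts in a file. Whether such a read was counted once or once per position cannot be told from the counts, so this scale is not a share of all reads. On that scale the Kc Rb5 libraries held 97.6, 97.8 and 102 shep reads per 1000000 and the Kc Su(Hw) libraries 36.3, 37.8 and 38.3, so these groups did not overlap. They did not overlap per 1000000 reads given to genes either, at 229 to 260 and 73.0 to 168, while in TMM-scaled CPM they did. The Kc inputs ran from 23.0 to 105 per 1000000 and overlapped with every Kc precipitate. In BG3 cells the values were 97.8 and 43.8 with Rb5, 16.3 and 15.8 with Su(Hw) and 4.59 and 3.69 in the inputs, which kept the order found in CPM.

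**Figure D3:**
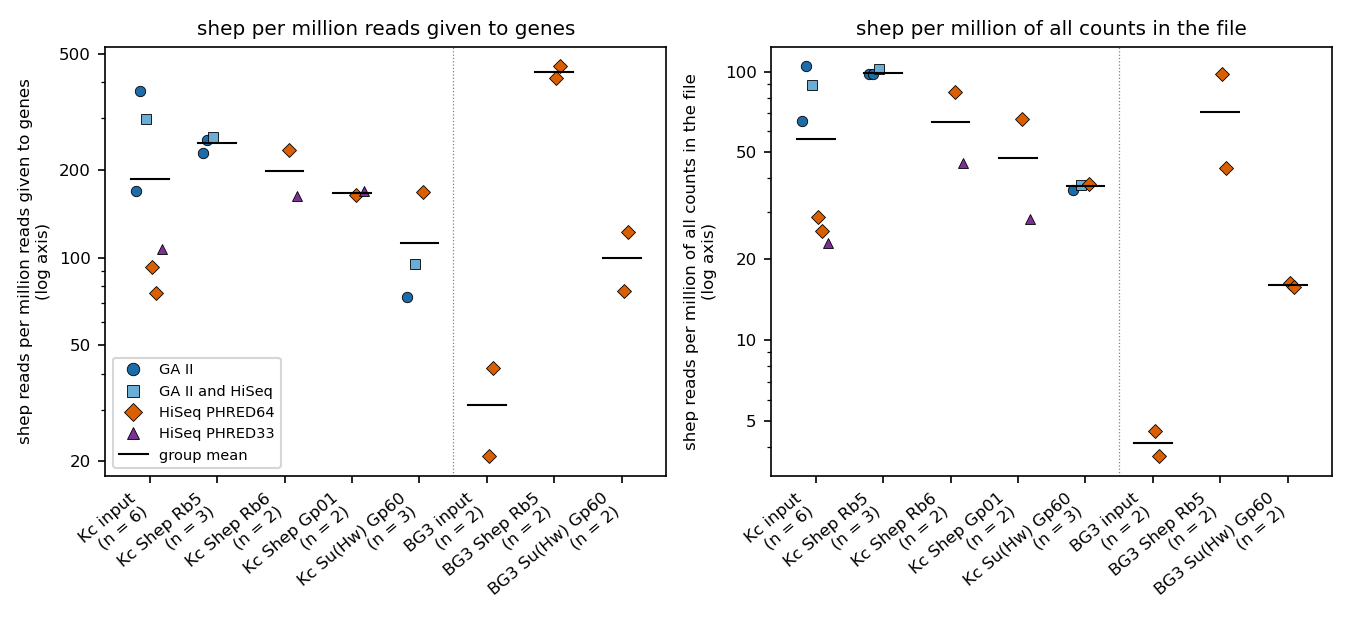
shep in each library per 1000000 reads given to genes (left) and per 1000000 of all counts in the file (right), both on log axes. Symbols and black means are as in the plot of CPM by library. In both panels the BG3 Rb5 libraries lie above BG3 Su(Hw) and BG3 input, and Kc Rb5 lies above Kc Su(Hw), at 229 to 260 against 73.0 to 168 in the left panel and 97.6 to 102 against 36.3 to 38.3 in the right.

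**Figure D4:**
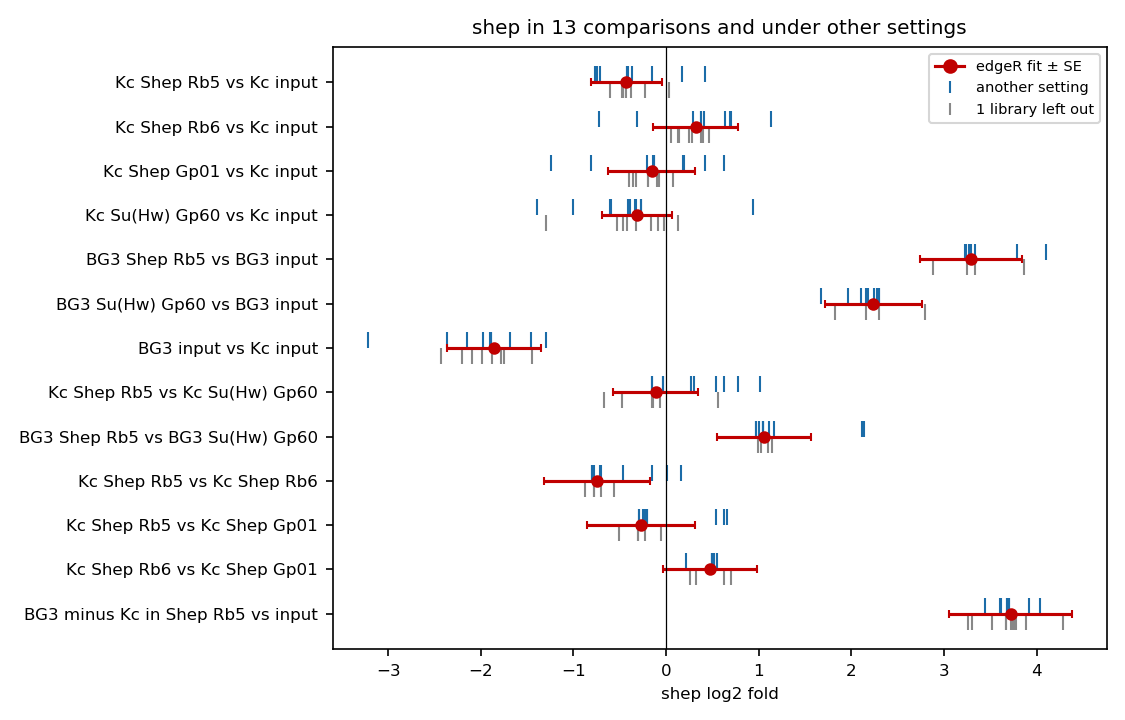
log2 fold of shep in the 13 comparisons (x axis), with the edgeR fit ± SE in red, other processing settings as blue ticks and fits with 1 library left out as grey ticks. Every tick lies to the right of 0 for BG3 Rb5 against input (2.88 to 4.10) and for BG3 Su(Hw) against input (1.67 to 2.80), while ticks lie on both sides of 0 for each Kc precipitate against input.

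The genes whose levels varied most like shep over the 22 libraries were not close to it. The highest Pearson correlations of log2 CPM were r = 0.77 for FBgn0000273 and 0.75 for FBgn0261556, and 0 of the other 9960 genes passed 0.9. Only 81 tested genes had a symbol. Among them the highest were CG8516 (r = 0.59) and Asx (0.58), a Polycomb-group gene. CG42271 (0.48), pps (0.30) and Acsf3 (0.30) followed. In this order they ranked 80, 94, 285, 1031 and 1078 among all 9960 other genes, so many genes without a symbol varied more like shep. CG8516 had its lowest mean in the BG3 inputs, at 7.18 ± 0.24 CPM, and 16.2 ± 3.47 CPM in BG3 Rb5, but unlike shep it reached its highest mean in Kc Rb5, at 31.6 ± 2.45 CPM. With library totals in place of TMM these correlations were 0.84 for FBgn0000273, then the third highest of all genes, 0.81 for FBgn0261556, 0.74 for CG8516, 0.73 for Asx, 0.68 for CG42271, 0.51 for pps and 0.53 for Acsf3. The libraries share antisera, inputs and scaling, so these correlations are a description.

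Taken as each of the 14 precipitates minus the mean input of its line, the pattern nearest to shep was that of FBgn0015586 (r = 0.94), followed by FBgn0037552 (0.91). FBgn0015586 had at most 1.38 CPM in any BG3 library and at most 0.12 CPM in any Kc library, so its likeness rests on few reads. FBgn0037552 had only 0.30 to 1.43 CPM in the BG3 libraries. In Kc cells it stood at 77.5 ± 12.6 CPM in the inputs and at lower means of 30.4 to 37.6 CPM in the precipitates. Its Kc log2 folds ran from -1.35 to -1.05, against -0.43 to 0.32 for shep. With symbols, the nearest were lncRNA:CR46499 (r = 0.82), Ant2 (0.72), an adenine nucleotide translocase, Asx (0.72), CG42271 (0.66) and CG8516 (0.65). They ranked 42, 180, 209, 351 and 399 among all other genes. Ant2 too was lower in the Kc precipitates, at means of 28.4 to 47.4 CPM against 67.8 ± 33.0 CPM in the inputs. The correlations run over both lines together, and none was taken within a line. lncRNA:CR46499 stood at 2.51 ± 0.10 CPM in the BG3 inputs, 8.13 ± 0.93 CPM with Rb5 and 6.30 ± 1.06 CPM with Su(Hw), and at no more than 0.06 CPM in any Kc library. With library totals in place of TMM the correlations of these 7 genes lay between 0.58 and 0.92.

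In the RefSeq gene table the protein-coding gene CG4669 overlaps the span of shep. Its identifier could not be paired, so its counts are not given, and the strand setting of the counting is not given in the sources used here. Reads that matched several genes made up from 0.17% to 1.19% of the counts in a file and are in no gene's count. Of the 118 listed symbols for RNA-binding proteins, insulator proteins, ecdysone response and cell types, 1 could be paired with an identifier, lwr (FBgn0010602), the SUMO-conjugating enzyme. It passed the test in none of the 4 Shep comparisons with input (edgeR adjusted p from 0.157 to 0.685). From 11% to 29.9% of all tested genes were called in these, so nothing is read from 1 gene that was not. Between BG3 and Kc inputs, where 42.6% of tested genes were called, lwr was lower in BG3 (log2 fold -1.14 ± 0.26, edgeR adjusted p 0.0015).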

How the data were processed

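The authors deposited raw read counts per gene identifier, 1 table per sample. Per the submitters' processing notes they used build dm3 with Bowtie2, TopHat2, DESeq, HTSeq and cutadapt 1.2.1; neither the annotation release nor the strand setting is given in the sources used here. Of 25 samples, 3 repeated the file of another sample of the same name (Kc input 3, Rb5 3 and Su(Hw) 2) and were dropped, leaving 22 libraries in 8 groups. Lines for reads given to no gene (50.2% to 91.2% of a file) were left out of library sizes.

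Counts were fitted with edgeR's quasi-likelihood method (edgeR 4.0.16, limma 3.58.1, R 4.3.3; robust, TMM) over all libraries, with group means and sequencing class as terms. Filtering at a minimum count of 10 and a total of 15 left 9961 genes. Calls used Benjamini-Hochberg adjusted p under 0.05. A prior count of 2 entered log2 CPM values, used within classes and for likeness. The fit was tested on simulated data. Symbols came from a RefSeq table of another assembly, which paired 172 identifiers. The gene, lists and tests were chosen with earlier results of these data known. Named genes were shep, the 5 genes with a symbol and the 2 without that correlated best with it by each measure, its neighbours in the table, and list members that passed in a Shep comparison with input (none did). Outside this rule, lwr, the only list member that could be paired, and FBgn0085813 are named, chosen after their values were seen.

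Alternatives were RLE size factors, library totals, DESeq2 1.42.0, no filter, no class and a replicate block in place of the class. Others were only the compared groups, GA II or HiSeq libraries alone, leaving out FBgn0085813, and leaving out each library. After the data were seen, all counts in the file as library size was added. Numbers were to count as pairs where 3 or more same-numbered pairs of libraries had deviations from their group means that all correlated above 0.1. This held for Kc Rb5 and input (0.31 to 0.49), which share classes by number, and not for Kc Su(Hw) with input (-0.35 to 0.04) or with Rb5 (-0.21 to -0.05). The other comparisons have only 2 shared numbers and could not meet it, although 0.64 was reached for BG3 Rb5 with input and for Rb6 with Gp01.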

Additional observations from a re-analysis of the deposited data

Results flagged for a closer look

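shep in Rb5 precipitates was set apart because the cell lines went opposite ways. Against the inputs of their own sequencing class, both BG3 Rb5 libraries were higher, by 3.41 and 3.33 in log2 CPM, and all 3 Kc Rb5 libraries were lower, at -0.71, -0.56 and -0.72. The mean difference between the lines was 4.03, and it was not tested. No class holds Rb5 libraries of both lines. Against the mean of all 6 Kc inputs the same Kc libraries stood at -0.04, 0.11 and 0.23, so their direction depends on which inputs they are set against. Dixon's gap test singled out no Kc input from the other 5, with a largest gap ratio of 0.24 against a critical value of 0.625. Where several inputs are high, this test can miss a single one, so nothing is read from it.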

How the results depend on the processing

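The directions of BG3 Rb5 against input, BG3 Su(Hw) against input, BG3 Rb5 against Su(Hw), BG3 against Kc input, Kc Rb6 against Gp01 and the difference of the Rb5 fold between lines were the same under each alternative that gave a value. Those of the 4 Kc precipitates against input and of Kc Rb5 against Su(Hw), Rb6 and Gp01 turned under at least 1. With library totals the log2 fold of shep was 3.79 for BG3 Rb5, 1.67 for BG3 Su(Hw), 2.12 between them, 0.17 for Kc Rb5, 0.42 for Gp01, -0.47 for Rb5 against Rb6 and 0.78 for Kc Rb5 against Su(Hw). With all counts in the file as library size it was 4.10 for BG3 Rb5, 2.14 for BG3 Rb5 against Su(Hw), -3.22 between the inputs, 0.42 for Kc Rb5, 1.13 for Rb6, 0.63 for Gp01 and 1.01 for Kc Rb5 against Su(Hw). Without the class it was -0.31 for Rb6, -0.81 for Gp01, 0.16 for Rb5 against Rb6, 0.66 for Rb5 against Gp01 and 0.27 for Kc Rb5 against Su(Hw). With the compared groups alone it was 0.70 for Rb6 and 0.18 for Gp01. It was -0.15 for Rb5 against Rb6, 0.63 for Rb5 against Gp01 and 0.54 for Kc Rb5 against Su(Hw). The replicate block, which replaced the class, gave -0.71 for Kc Rb5, -0.72 for Rb6, -1.24 for Gp01 and -1.01 for Kc Su(Hw). Rb6 and Gp01 libraries differ in class from the inputs of the same number. The block also gave 0.01 for Rb5 against Rb6, 0.54 for Rb5 against Gp01 and 0.30 for Kc Rb5 against Su(Hw). HiSeq libraries alone gave 0.69 for Rb6, 0.19 for Gp01 and 0.94 for Kc Su(Hw). GA II libraries alone gave -1.39 for Kc Su(Hw) and 0.62 for Kc Rb5 against Su(Hw), and no filter 1.17 for BG3 Rb5 against Su(Hw). The cause was not tested.

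With 1 library left out, the folds ran from 2.88 to 3.86 for BG3 Rb5, 1.82 to 2.80 for BG3 Su(Hw), -0.60 to 0.03 for Kc Rb5 (without input 2), -0.40 to 0.08 for Gp01 (without Gp01 1), -1.30 to 0.13 for Kc Su(Hw) (without Su(Hw) 3 and 1), -0.67 to 0.56 for Kc Rb5 against Su(Hw) (without Su(Hw) 1 and 3) and -0.51 to -0.06 for Rb5 against Gp01 (without Gp01 1 and 2). A group left with 1 library was assumed to vary like the others.

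The counts of genes called by edgeR, from which the background shares come, were 1094 for BG3 Rb5, 2968 for Kc Rb5, 2975 for Rb6, 2009 for Gp01 and 4242 between the inputs. For BG3 Rb5 the count was 519 with all counts in the file, 1775 with DESeq2, 304 without the class, and 0 with only these 2 groups fitted (2095 at an unadjusted p under 0.05). It was 3095 for Gp01 with library totals, 0 for Kc Rb5 with GA II libraries alone (1819 at an unadjusted p under 0.05) and 2766 between the inputs with the compared groups alone. With 1 library left out it ran from 92 to 891 for BG3 Rb5 (92 without input 1, 197 without Rb5 1, 385 without Rb5 2), 1466 to 2889 for Kc Rb5 (lowest without Rb5 3), 382 to 3068 for Rb6 (382 and 1828 without Rb6 1 and 2) and 235 to 2028 for Gp01 (235, 760 and 1072 without Gp01 1, Gp01 2 and Kc input 6). GA II libraries alone gave no value for comparisons with Rb6, Gp01 or BG3, HiSeq libraries alone none for Kc Rb5, and neither gave one for the difference between lines.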

Other observations

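Counted by library in log2 CPM, 2 tested genes stood further above the BG3 input mean than shep in both BG3 Rb5 precipitates. They were FBgn0263480 and FBgn0263479, neither with a symbol here. In either precipitate 13 genes did, and by the edgeR fold 112 genes exceeded shep. The prior count of 2 makes the log2 CPM differences of genes with few counts smaller, so this count places shep higher than the fit does. FBgn0263480 was 4.99 and 3.40 above input in log2 CPM with Rb5, beside 3.41 and 3.33 for shep, but it was 9.87 and 7.36 above input with Su(Hw), where shep was 2.39 and 2.24 above. FBgn0263479 was 4.81 and 3.50 above input with Rb5 and 9.75 and 7.32 with Su(Hw). Their mean input levels were 0.48 and 0.17 CPM, so their differences rest on low input counts and on the prior count, while shep stood at 37.6 CPM. In both Su(Hw) precipitates 177 genes stood further above input than shep in log2 CPM, and 881 did by the edgeR fold. The genes were chosen after their values were seen.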
